A study of Caenorhabditis elegans with 2 samples.

Results

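The nuclear genes of the mitochondrial respiratory chain were followed in a ChIP-seq experiment on EGRH-3, the Caenorhabditis elegans relative of mammalian early growth response (EGR) factors, which bind DNA through zinc fingers. The genes were taken by name from the WBcel235 annotation: those whose names begin with nuo, cox, atp, ucr, cyc or sdha to sdhd, together with gas-1, isp-1 and mev-1. This gave 41 of 19973 nuclear protein-coding genes. They fell into 7 genes of complex I, 5 of complex II, 7 of complex III, 2 cytochrome c genes, 7 subunits of complex IV, 8 assembly factors of complex IV and 5 subunits of the ATP synthase.

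The only group was strain RW12196, in which CRISPR had placed a TY1, EGFP and 3xFLAG tag in the egrh-3 gene on its own chromosome, and it comprised 2 biological replicates. Whole young adults aged 65 h, from cultures synchronised by starving L1 larvae, were sonicated and precipitated with an antibody against GFP. Every worm carried the tag, and without peaks from a strain lacking it the background enrichment was not measured. Whole animals mix all tissues, so a stronger region and a region occupied in more cells cannot be told apart. Depth is unknown, because the files hold peaks and no read counts, and the difference between the replicates is the only measure of spread.

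The respiratory chain passes electrons through membrane complexes of the inner mitochondrial membrane. Complex I takes them from NADH and complex II from succinate, complex III hands them to cytochrome c, and complex IV gives them to oxygen. The proton gradient built on the way drives the ATP synthase. Most subunits are encoded in the nucleus and the rest in mitochondrial DNA, so both genomes supply parts of the same complexes, and the chain is active in muscle, germ line and other tissues with a high demand for ATP.

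The summits of the conservative peak list that lay beside atp-2, cox-5A, cyc-2.1, atp-5, atp-4 and cox-6A are shown because they were promoter sites of the chain, with and without a recurring run of letters. Each sequence is 101 bases of the RefSeq WBcel235 assembly centred on the summit, read 5′ to 3′ on the plus strand, with CGGGCG and its reverse complement CGCCCG in capitals. The intervals, in the same order, are chrIII:5228130-5228230, chrIII:12905158-12905258, chrIV:4748522-4748622, chrV:11124080-11124180, chrV:6426993-6427093 and chrIII:5080855-5080955. Those of atp-2, cox-5A, atp-5 and cox-6A are centred between genes. That of cyc-2.1 is centred in an intron of the gene and that of atp-4 in a coding exon.
atp-2: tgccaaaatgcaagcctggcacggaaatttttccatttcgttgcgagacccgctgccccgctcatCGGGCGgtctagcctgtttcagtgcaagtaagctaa
cox-5A: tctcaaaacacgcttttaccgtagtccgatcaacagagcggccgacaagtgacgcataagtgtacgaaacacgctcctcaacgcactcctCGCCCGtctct
cyc-2.1: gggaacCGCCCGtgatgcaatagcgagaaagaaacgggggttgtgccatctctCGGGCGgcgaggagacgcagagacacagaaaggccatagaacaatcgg
atp-5: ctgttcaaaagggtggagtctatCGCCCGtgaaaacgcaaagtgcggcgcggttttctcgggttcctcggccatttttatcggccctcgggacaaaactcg
atp-4: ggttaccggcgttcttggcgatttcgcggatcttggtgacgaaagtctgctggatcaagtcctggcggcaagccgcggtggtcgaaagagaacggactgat
cox-6A: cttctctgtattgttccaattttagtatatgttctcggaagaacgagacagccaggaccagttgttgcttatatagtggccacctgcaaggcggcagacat
The first 4 hold the capital letters and the last 2 do not. That is a higher share than among all the chain's promoter summits, where 5 of 11 held them.

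A gene was counted where a peak summit lay between 1000 bp upstream of an annotated 5′ end and the end of the gene. In the conservative list, which rests on both replicates, 12 of 41 respiratory chain genes (29.3%) had a summit, against 8.12% of all nuclear protein-coding genes. In the larger list from both replicates the count was 13 genes (31.7%), against 11.5% of all genes. The list of replicate 1 gave 8 genes (19.5%) against 9.82%, and the list of replicate 2 gave 6 genes (14.6%) against 5.70%. The share among respiratory chain genes was thus higher than that among all genes in each of the 4 lists, a description with no test.

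Window length enters such a count. The median window of the 41 genes was 2749 bp, but that of cox-6B was 88197 bp, since 1 of its 2 annotated transcripts starts far upstream. Without cox-6B the longest window was 9013 bp. Over the other 40 genes the counts were 11 (27.5%), 12 (30.0%), 7 (17.5%) and 6 (15.0%) in the conservative list, the larger list, the list of replicate 1 and the list of replicate 2. Among all 18466 genes with a window no longer than 9013 bp the matching shares were 6.91%, 9.71%, 8.24% and 4.88%. In a promoter window of 1000 bp upstream to 200 bp downstream, the respiratory chain counts in the same order of lists were 10 (24.4%), 11 (26.8%), 5 (12.2%) and 6 (14.6%). The corresponding shares of all genes were 4.86%, 6.57%, 5.03% and 3.60%.

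The complexes were covered unevenly. The ATP synthase had a summit at 4 of the 5 genes named atp, at the same 4 genes in each list. ATP synthase genes outside the name rule are not in this count. Complex IV had one at 4 of 7 subunit genes and at 0 of 8 assembly factor genes in the conservative list. Complex I had 2 of 7 genes, complex III had 1 of 7, cytochrome c had 1 of 2 and complex II had 0 of 5. The list of replicate 2 held none of the summits of complexes I and III or of cytochrome c. That of replicate 1 held 1 gene each of complexes I and III, neither in its promoter window, and none of cytochrome c. These groups are small and the differences among them were not tested.

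**Figure D1:**
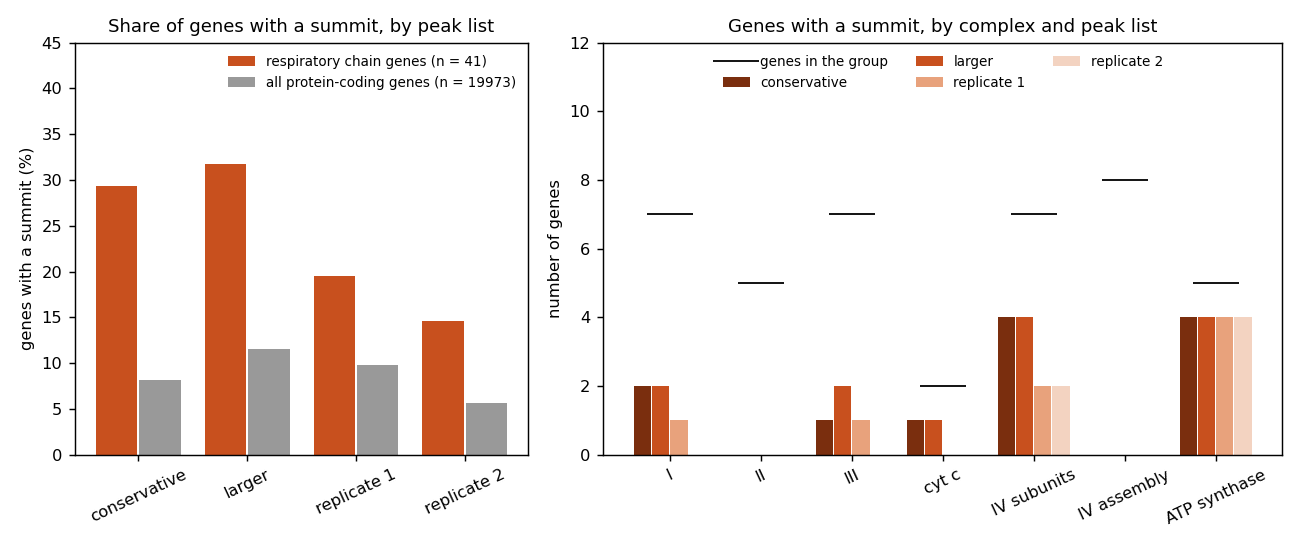
The left panel plots the percent of respiratory chain genes and of all protein-coding genes with a summit in each of the 4 thresholded peak lists, and the right panel plots the number of genes with a summit per complex and list, with a line at the number of genes in the group. Respiratory chain bars stand above the bars of all genes in each list, and the ATP synthase is the group with 4 genes in every list.

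At the 4 ATP synthase genes with a summit the replicates gave near-equal signals. atp-1 encodes the alpha subunit of the catalytic head. Its summit lay 29 bp inside the 5′ UTR, within the interval chrI:12652167-12652372 of ce11, the build of the files, with a deposited signal of 177 (rank 778 of 2194 nuclear peaks by signal) and a global irreproducible discovery rate (IDR) of 3.39e-04. The IDR estimates the share of irreproducible peaks at that rank or better, and the thresholded lists end at 0.01. In the replicates' own ranked lists the signal there was 85.2 in replicate 1 and 97.4 in replicate 2. The window of the neighbour mcrs-1 held the same summit.

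atp-2, the beta subunit that carries the catalytic sites, had its summit 237 bp upstream in chrIII:5228132-5228253, between genes. The signal was 113 (rank 1422), with 55.4 in replicate 1 and 57.4 in replicate 2. C34E10.10 and C34E10.12 shared it. atp-4, homologous to a coupling factor of the stalk that joins the head to the membrane, had its summit 69 bp inside the gene, in a coding exon, within chrV:6426843-6427242. That signal was 98.8 (rank 1677), with 48.5 in replicate 1 and 51.0 in replicate 2, and T05H4.11 shared it.

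atp-5, a further stalk subunit, had its summit 263 bp upstream in chrV:11124008-11124236 with a signal of 149 (rank 1007), an IDR of 8.54e-04, and replicate signals of 74.0 in replicate 1 and 64.7 in replicate 2. Its neighbour lmtr-3 shared the site. The list of replicate 2 placed another summit of signal 8.34 at −464 bp, in a coding exon of lmtr-3. At all 4 genes the replicates gave signals within a log2 ratio (replicate 1 over replicate 2) of −0.19 to 0.19, and both replicates' thresholded lists held the site. The remaining gene named atp, atp-3, which encodes the oligomycin-sensitivity protein of the stalk, had no thresholded summit. Its strongest ranked region, at 18 bp, had an IDR of 0.0221. The strongest signals anywhere in its window were 29.6 in replicate 1 and 47.1 in replicate 2.

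Among the complex IV subunits, cox-5B had the highest signal of the 41 genes in the conservative list. Its summit lay 14 bp upstream in chrI:9788597-9788822, between genes, with a signal of 193 (rank 690) and an IDR of 3.23e-04. Replicate 1 gave a signal of 82.8 and replicate 2 one of 114, both thresholded, and no other gene's window held the summit. At rank 690 of 2194 it still lay well below the strongest peaks of the list.

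cox-5A had its summit 283 bp upstream in chrIII:12905122-12905309 with a signal of 148 (rank 1014). Among the chain's promoter sites with a region in both replicates, the replicates differed most here, with 43.4 in replicate 1 and 98.4 in replicate 2 (log2 ratio −1.18). Only the list of replicate 2 held it. cox-6A had a weaker summit, 819 bp upstream in chrIII:5080705-5081104, with a signal of 88.0 (rank 1911), an IDR of 9.45e-03 close to the limit of 0.01, 36.3 in replicate 1 and 48.8 in replicate 2. Neither replicate's thresholded list held it.

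cox-6B had a pair of summits in the conservative list. The one near its short transcript lay 146 bp upstream in chrIII:2785856-2786255, with a signal of 80.1 (rank 2038), 40.7 in replicate 1 and 46.7 in replicate 2, and was shared with Y71H2AM.20 and nduc-2, itself named as a complex I subunit. The other lay 7320 bp upstream of that start in chrIII:2778855-2778972, inside the intron of the long cox-6B transcript and in a coding exon of laf-1, which encodes a DEAD-box RNA helicase. It had a signal of 145 (rank 1048), with 108 in replicate 1 and 38.7 in replicate 2. The larger list added a summit of signal 121 in laf-1 and one of 74.1 further upstream. Thus the entry of cox-6B in the list of replicate 1 came from laf-1 and not from its own promoter.

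The other 3 subunit genes, cox-4, cox-6C and cox-7C, had no thresholded summit. None of the 8 assembly factor genes, cox-10, cox-11, cox-14, cox-15, cox-16, cox-17, cox-18 and cox-19, had one either. In yeast these factors serve heme modification, copper delivery and membrane insertion. The nearest to the threshold was cox-14, with an IDR of 0.0486 at −219 bp. The strongest signals anywhere in its window were 26.7 in replicate 1 and 29.1 in replicate 2. cox-16 and cox-18 had no region in the ranked list of both replicates.

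**Figure D2:**
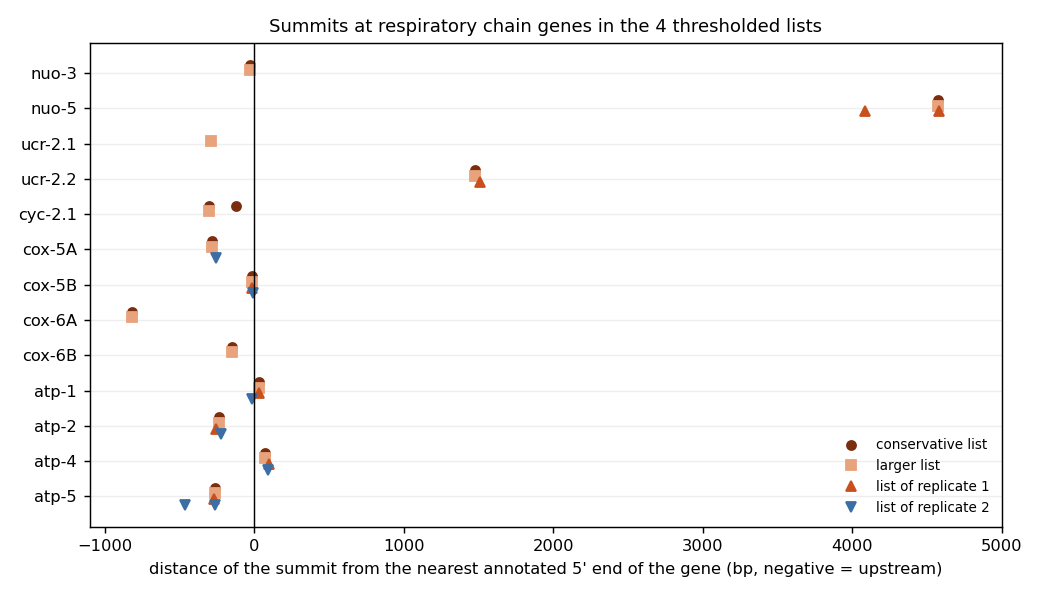
Each row is a gene and the horizontal axis is the distance of a summit from the nearest annotated 5′ end in bp, with negative values upstream and one marker shape per peak list. The 4 ATP synthase genes carry markers of all 4 lists close to the start, while nuo-5 and ucr-2.2 carry theirs inside the gene. The cox-6B summits at laf-1 and further upstream lie outside the axis and are not drawn.

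Complex I contributed nuo-3 and nuo-5. nuo-3, an accessory subunit, had its summit 30 bp upstream of one of its starts and within an annotated 5′ UTR, in chrIV:14797300-14797699, with a signal of 98.7 (rank 1681), 53.8 in replicate 1 and 40.9 in replicate 2. Neither replicate's thresholded list held it, and arl-8, a small GTPase of lysosomes, and an overlapping gene with a sequence name only shared it. nuo-5 encodes the large iron-sulfur subunit. Its summit lay 4573 bp inside the gene, in a coding exon within chrV:2703404-2703628, with a signal of 164 (rank 881). Replicate 1 had 118 there, and replicate 2 had no ranked region over the summit, its strongest in the gene's window being 23.4 elsewhere.

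The other 5 genes of complex I had no thresholded summit. nuo-1, which encodes the NADH-binding subunit, had signals of 15.6 in replicate 1 and 24.0 in replicate 2. nuo-2 had 11.5 in replicate 1 and 17.0 in replicate 2, and nuo-4 had a region in replicate 2 only, with 15.9. gas-1, homologous to a core subunit near the quinone site, had 11.4 in replicate 1 and no region in replicate 2, and nuo-6 had none in either.

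Complex II had no thresholded summit at any of its 5 genes. mev-1, which encodes the large membrane anchor, came nearest. Its region at −116 bp had an IDR of 0.0153 and a signal of 68.7. The strongest signals anywhere in its window were 36.3 in replicate 1 and 35.7 in replicate 2. sdha-1 and sdha-2 encode forms of the flavoprotein, sdhb-1 the iron-sulfur subunit and sdhd-1 the small anchor. Their signals ran from 11.4 to 27.4 in replicate 1 and from 18.6 to 28.8 in replicate 2.

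Complex III was represented in the conservative list by ucr-2.2, a core protein gene, through a summit 1475 bp inside it. The site, chrX:15175312-15175509, lies in an intron of ucr-2.2 and in a coding exon of the collagen gene col-41. Its signal was 153 (rank 971), with 111 in replicate 1 and 45.2 in replicate 2, and only the list of replicate 1 held it. The larger list added ucr-2.1, a further core protein gene, at −287 bp, with a signal of 79.1 (rank 2602 of 3254). The strongest signals anywhere in its window were 23.9 in replicate 1 and 52.5 in replicate 2. In the ranked list of both replicates the region at −287 bp had an IDR of 0.0558. That value is above the limit of the thresholded lists, so the larger list does not follow that ranking here. cyc-1, which encodes cytochrome c1, isp-1, the Rieske iron-sulfur protein, and ucr-1, ucr-11 and ucr-2.3 had no thresholded summit.

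Cytochrome c itself is encoded by cyc-2.1 and cyc-2.2. cyc-2.1 had its stronger summit in an intron, 123 bp upstream of its nearer start, in chrIV:4748513-4748621, with a signal of 101 (rank 1627), 52.3 in replicate 1 and 50.7 in replicate 2, shared with the cilium transition-zone gene tctn-1. A weaker one of signal 50.8 lay at −305 bp in a coding exon of the ribosomal protein gene rpl-20, with 49.2 in replicate 1 and no region over it in replicate 2. The window of Y17G9B.5 held it as well. The larger list held only the weaker one. cyc-2.2 had no region in any ranked list.

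The sites divided by position. Of the 14 summits, 11 lay in the promoter window of the respiratory chain gene itself. The other 3, at laf-1 within cox-6B, at nuo-5 and at ucr-2.2, were all in coding exons, all in the list of replicate 1 and none in that of replicate 2. The first of them lay in the promoter window of laf-1. Of all conservative summits, replicate 1 called 80.8%, including 33.0% that replicate 2 did not call. Summits of all genes outside promoter windows had a median log2 ratio of 0.91, so higher signal in replicate 1 was usual there. For promoter summits of all genes, the class of the laf-1 site, the median was 0.44. The laf-1 and ucr-2.2 sites had a region in both replicates. Their signals were 108 and 111 in replicate 1, against 38.7 and 45.2 in replicate 2.

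Of the 11 promoter summits, the 10 covered in both replicates had the opposite lean as a set. The other, the weaker summit of cyc-2.1, had 49.2 in replicate 1 and no region over it in replicate 2. It is left out of the comparisons of this paragraph. Signal was higher in replicate 2 at 7 of the 10 covered in both replicates (70.0%), against 27.6% of 804 promoter summits of all genes and 20.6% of 2070 summits in all. Their median log2 ratio of replicate 1 over replicate 2 was −0.13 (−1.18 to 0.39), against 0.44 for all promoter summits and 0.72 for all summits. Signals of separate lists may not share a scale, so ranks were compared as well. The percentile within the replicate's own ranked list was higher in replicate 2 at 10 of 10, against 63.6% of all promoter summits and 52.3% of all summits. Among promoter summits with a GC content from 50% to under 60% that share was 77.5% of 360, and signal itself was higher in replicate 2 at 32.2%.

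The 11 promoter summits were of modest strength, with a median signal of 101, against 130.3 for all promoter summits and 139.8 for all summits. Of the 11, 5 were in both replicates' thresholded lists (45.5%), against 48.3% of all promoter summits. A further 5 were in neither list (45.5%), against 13.4% of all promoter summits. The part of this lower signal in the lean towards replicate 2 was not tested.

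**Figure D3:**
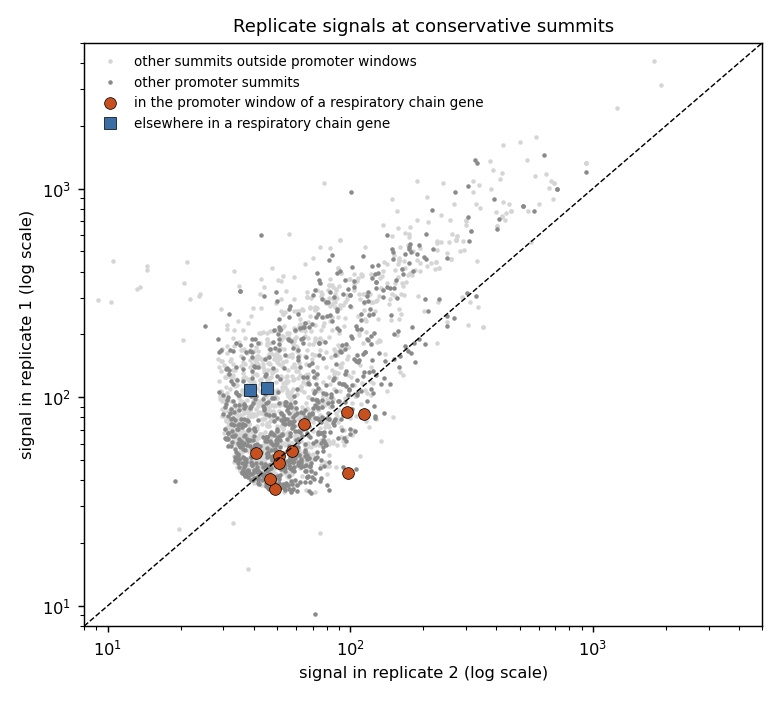
Each point is a conservative summit, with its signal in replicate 1 on the vertical axis and in replicate 2 on the horizontal axis, both on log scales, and the dashed line marks equal signal. The 10 sites in the promoter window of the respiratory chain gene itself lie at signals from 36.3 to 114, near the line except for cox-5A well below it, and the sites in cox-6B and ucr-2.2 outside that gene's own promoter window lie above it. Summits without a region in both replicates, nuo-5 among them, are not drawn.

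Only 5 respiratory chain genes, cox-5B, atp-1, atp-2, atp-4 and atp-5, had a summit in the lists of both replicates, and these 5 were also in all 4 lists. Over all genes 896 (4.49%) were in both replicates' lists and 886 (4.44%) in all 4. Of the 12 respiratory chain genes with a conservative summit, replicate 1 called 8 and replicate 2 called 6, and these counts share the 5 genes above. Of all genes with a conservative summit, replicate 1 called 83.0% and replicate 2 called 62.1%, again with shared genes in both shares.

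Without a threshold, most of the chain had a region, and the counts here include genes with a thresholded summit. In the unthresholded ranked list of both replicates, 36 of 41 genes (87.8%) had a region, against 46.1% of all genes. The ranked list of replicate 1 gave 33 genes (80.5%) against 47.7%, and that of replicate 2 gave 36 (87.8%) against 51.8%. By complex, in the list of both, these were 5 of 7 in complex I, all genes followed in complexes II and III and 1 of the 2 cytochrome c genes. For complex IV they were all 7 subunits and 6 of 8 assembly factors, and for the ATP synthase all genes named atp.

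Of the 28 genes with no thresholded summit, 23 had a region in that list, with signals from 18.2 to 80.2 (median 36.0), and 5 had none (gas-1, nuo-6, cyc-2.2, cox-16 and cox-18). Over the 6715 genes of the genome with no thresholded summit but a ranked region the median was 31.9. In replicate 1 the median over 20 respiratory chain genes was 18.9, against 18.4 for all such genes. In replicate 2 it was 22.7 over 23 genes, against 18.4. The uncalled genes of the chain were thus close in level to uncalled genes at large in replicate 1. Their medians were higher in replicate 2 and in the list of both replicates, which was not tested.

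**Figure D4:**
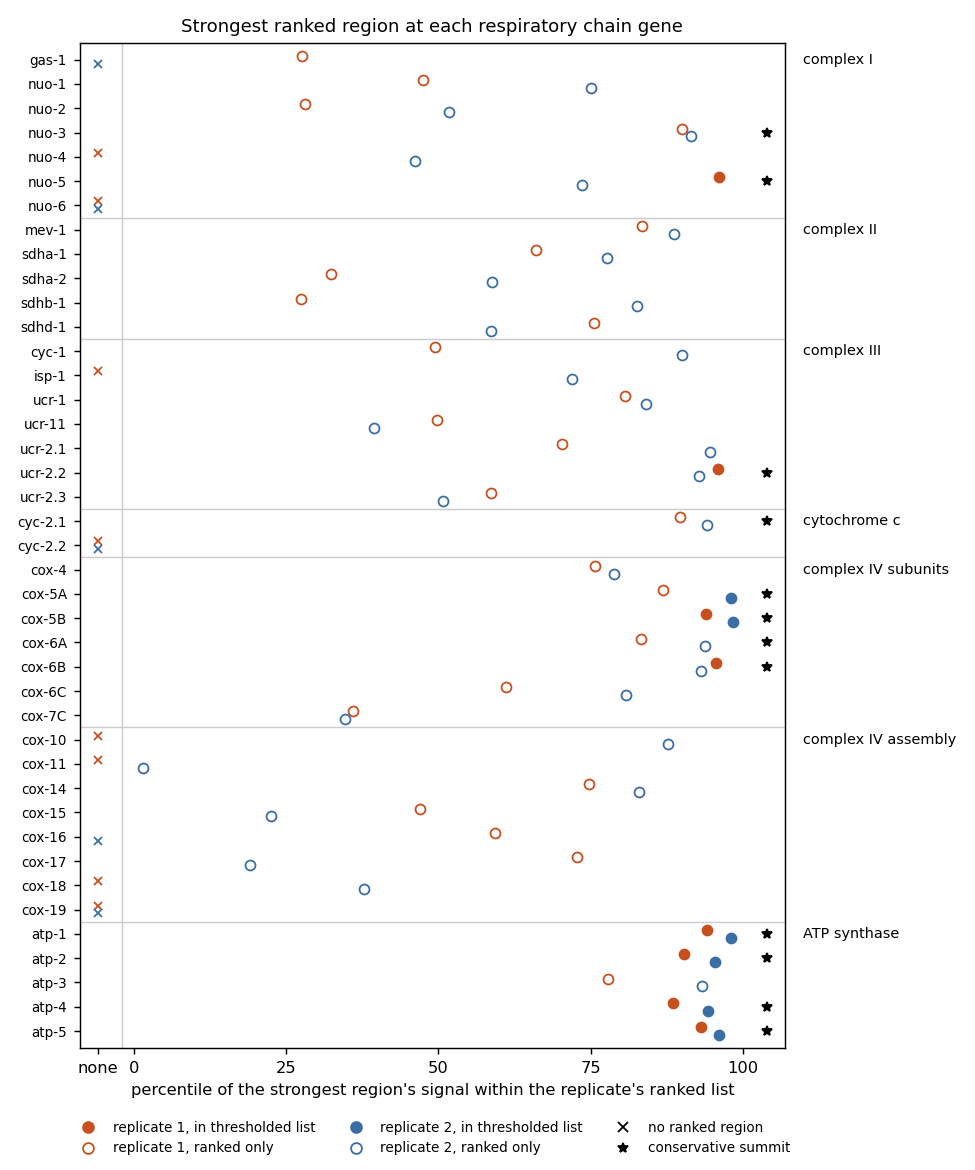
Each row is a respiratory chain gene, and the horizontal axis is the percentile of its strongest region's signal within the ranked list of replicate 1 or replicate 2, with filled circles for genes in that replicate's thresholded list, crosses for no region and stars for a conservative summit. The ATP synthase rows lie at the right in both replicates, with atp-3 the only open pair, and the assembly factor circles run from 46.9 to 74.8 in replicate 1 and from 1.49 to 87.8 in replicate 2, all open.

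The letters CGGGCG were noticed in these sequences after they had been read out. They were picked because they recur here, so a higher share than elsewhere carries no weight as support. On either strand they occurred within 50 bp of 5 of the 14 summits (35.7%), those of cox-5B, atp-2, cox-5A, cyc-2.1 and atp-5, against 162 of 2194 conservative summits (7.38%). Within promoters the counts were 5 of 11 (45.5%), against 53 of 846 (6.26%). Promoter summits of all genes with a GC content from 50% to under 60% held it at 19 of 379 (5.01%), and the median GC content was 55.4% in the chain's promoter summits and 55.4% in all promoter summits. cyc-2.1 held 2 matches, and the matches were centred 6 to 43 bases from the summits.

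Core letters bound by mammalian EGR proteins were searched on both strands over the same 50 bp. The first was GTGGGCG, its variant was GTGGGTG, and the last, shifted along the site, was GCGTGGG. None occurred at the 14 summits, against 1.91%, 1.41% and 1.82% of all 2194. GTGGGCG shares GGGCG with CGGGCG but differs from it in its first letters, so a match to one is no match to the other. A match is a stretch of letters and not a site of binding, and no match says only that the letters are not in the window.

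Related mitochondrial lists were counted the same way in the conservative list, beside the 8.12% of all genes. Respiratory chain genes outside the name rule had 4 of 18 (22.2%), and the strongest pair exceeded every site of the 41 genes in the signal of that list. nduf-2.2, a complex I subunit, had a signal of 665 (rank 102), with 459 in replicate 1 and 205 in replicate 2. mai-2, an inhibitor homologue of the ATP synthase, had 476 (rank 186), with 392 in replicate 1 and 88.6 in replicate 2. mai-1, its relative, had 144, and sco-1, a copper chaperone of complex IV, had 131. These 4 were in both replicates' lists. cchl-1, the heme lyase of cytochrome c, was in the larger list alone with 63.1. The names searched for this list also included asb and asg, for ATP synthase genes outside the rule. No gene so named had a summit in any of the 4 thresholded lists.

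The ADP/ATP translocases had 1 of 4 genes, ant-1.1, which exchanges ADP for ATP across the inner membrane, with a signal of 292 (rank 386) and replicate signals of 209.9 in replicate 1 and 90.3 in replicate 2. Import and chaperone genes had 3 of 15 (20.0%), hsp-60 with 206, timm-23 with 108 and hsp-6 with 85.3. The tricarboxylic acid cycle and pyruvate dehydrogenase had 1 of 18 (5.56%), sucl-1 with 131. The mitochondrial ribosome had 3 of 70 (4.29%), and ubiquinone synthesis 0 of 7. Complex I genes named ndua, ndub, nduc, ndus or nduv, a list added after the annotation was seen, had 2 of 19 (10.5%), ndua-2 with 93.5 and nduc-2 at the cox-6B site.

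Mitochondrial DNA, which encodes the chain's remaining subunits, held 24 summits in the conservative list, 24 in the larger list, 18 for replicate 1 and 24 for replicate 2. All 12 protein genes of mitochondrial DNA had one in the conservative list, with a highest signal of 2935. The highest value was 963 in replicate 1 and 1998 in replicate 2. The highest signals there exceeded those of the 41 nuclear genes in each of the 4 lists. These values do not compare binding between the 2 genomes. The scaling of the signal is unstated, no strain without the tag was measured, and the amount of mitochondrial DNA is not known from peak lists. No background count stands beside that of the mitochondrial genes.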

How the data were processed

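ChIP-seq peak lists of 1 group with 2 biological replicates were used, all on ce11 per the file headers. Which aligner and caller were run is not given in the sources used here. Sonication left fragments of 200 to 800 bp, and a control library exists, per the labels. The authors' deposited signal gives peak strength, with unstated scaling, and served to describe and rank peaks within a list. The deposited −log10 values are of the global IDR, and the lowest score of 830 in each thresholded list corresponds to an IDR of 0.01. Another ranked list was not used here.

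Summits were placed on the Ensembl release 115 annotation of WBcel235, counted for every gene whose window held them, with Python 3.11.15, pandas 2.3.3 and numpy 2.4.6, and the counting was tested on simulated data. Ranks are among nuclear peaks by signal. Replicate signals are those of the strongest ranked region of each replicate covering the summit. Mitochondrial peaks were kept apart. There was no comparison of conditions and no test, only counts beside all genes. Every respiratory chain gene was accounted for: those with a conservative summit are described with their values, the rest by values or ranges, and genes sharing a summit are named, except 1 known by a sequence name only. The genes and lists were chosen with earlier results of these data known, and the sequence length of 101 bases after the data were seen. Alternatives covered the list, replicate, threshold, window, summit position and gene assignment.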

Additional observations from a re-analysis of the deposited data

How the results depend on the processing

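The count of 12 respiratory chain genes ranged from 6 to 8 when either replicate was left out. It was 3 (7.32%) at a global IDR under 0.001, against 766 genes (3.84%) of all genes, and 7 (17.1%) with signals above the list's median, against 872 (4.37%). Upstream reach, promoter window, summit midpoint, interval overlap, nearest gene, the larger list and a cox-6B window restricted to its short transcript (chosen after seeing the data) gave 8 to 13. The count of 8 (19.5%) came from the nearest gene only, against 6.26% of all genes. A 2000 bp reach gave 13 (31.7%) against 10%, and a reach shorter than 1000 bp gave 11 (26.8%) against 6.94%. Interval overlap gave 13 (31.7%) against 8.7%. The promoter window gave 10 (24.4%), against 971 of all genes (4.86%). By complex, leaving out a replicate gave 0 to 1 gene in complex I, 0 to 1 in complex III, 0 for cytochrome c and 2 complex IV subunits. The stricter IDR gave 0, 0 and 0 for complexes I and III and cytochrome c, 1 complex IV subunit and 2 ATP synthase genes. Signals above the median gave 1 gene in complex I, 0 for cytochrome c and 2 for the ATP synthase. Complex I had 1 gene with the promoter window and 1 with the nearest gene only. Complex III had 0 with either, 2 in the larger list and 2 with a 2000 bp reach. Of the values of single sites, the strongest cox-6B signal of 145 became 80.1 at its nearest summit. The replicate lean changed sign with percentiles, replicate 1 minus replicate 2, at cyc-2.1 (−4.52), nuo-3 (−1.48) and atp-5 (−3.09). The cause of these changes was not tested. No paired analysis was possible because there was 1 group. Depth is unknown, so no limit from counting error can be given.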
